A study of Mus musculus with 20 samples.

Results

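The genes described here are 37 interferon-stimulated genes, 22 of them usual targets of type I interferon and 15 usual targets of type II interferon, followed in mouse skin under imiquimod cream and a high fat diet. They were listed by name, and each was read from the array feature that carries its gene symbol alone. All 37 had such a feature, among 22180 genes measured. The skin came from 20 C57/B6 mice aged 9 weeks, in 4 groups of 5. The CD-vehicle mice ate control chow and received vehicle on the shaved abdomen, and CD-IMQ mice ate the same chow and received imiquimod (IMQ) cream. HFD-vehicle and HFD-IMQ mice ate a high fat diet and received vehicle or the cream. The cream held 5% imiquimod (Aldara), 62.5 mg of it was applied each day for 5 days, and skin was taken 24 h after the last dose. All groups therefore shared strain, age, shaving and the 5 days of topical treatment, and the labels do not give how long the diets ran. Each array measured the RNA of 1 piece of abdominal skin from 1 mouse, on a log2 scale on which a difference of 1 is a 2-fold change. In such bulk RNA, fewer cells of a type and less RNA per cell cannot be told apart.

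Type I interferons (the alpha family and beta) act through the receptor chains IFNAR1 and IFNAR2, and the kinases JAK1 and TYK2 then lead to a complex that holds STAT2 and IRF9. That complex binds a promoter element, the interferon-stimulated response element (ISRE). Type II interferon (gamma), made mainly by T cells and natural killer cells, acts through IFNGR1 and IFNGR2, and its targets carry another element, the gamma-activated site (GAS). Imiquimod is an agonist of the RNA sensor TLR7, which plasmacytoid dendritic cells carry and through which they make type I interferon. Many target genes answer both kinds of interferon, so the division into types is a convention. It is used here to order the results.

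The promoters show the 2 elements by which the listed genes are known. RefSeq promoter windows (GRCm38.p6, 250 bases before to 50 after the annotated start) were at hand for 25 of the 37 members. The core of an ISRE (GAAA, any 2 bases, GAAA) was searched on both strands and occurred in the windows of 10 of 15 type I members (66.7%) and 6 of 10 type II members (60%), against 3.99% of 27025 genes with a window and 3.44% of 32851 windows. The letters TTCNNNGAA, a GAS, read the same on both strands. They occurred in 2 of 15 type I members (13.3%) and 6 of 10 type II members (60%), against 9.55% of genes and 8.3% of windows. Both elements occurred in 5 members. The 8 stretches below were picked because they hold a match, from members that were called (Ifit1, Ifit2, Rsad2 and Psmb8) and from others described below that were not (Isg15, Irf1, Igtp and Irgm2), each reading 5′ to 3′ along the gene's own strand with every match in capitals. Ifit1 lies at chr19:34640755-34640843 (plus strand), Ifit2 at chr19:34550444-34550491 (plus), Rsad2 at chr12:26456533-26456602 (minus), Isg15 at chr4:156200845-156200926 (minus) and Psmb8 at chr17:34198068-34198136 (plus). Irf1, Igtp and Irgm2 all lie on the plus strand of chromosome 11, at chr11:53769894-53769962, chr11:58199481-58199555 and chr11:58214872-58214952.
Ifit1: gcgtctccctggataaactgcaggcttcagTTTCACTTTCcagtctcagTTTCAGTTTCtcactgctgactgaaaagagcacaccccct
Ifit2: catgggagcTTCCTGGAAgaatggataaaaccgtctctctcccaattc
Rsad2: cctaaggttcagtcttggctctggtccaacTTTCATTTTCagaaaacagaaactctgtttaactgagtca
Isg15: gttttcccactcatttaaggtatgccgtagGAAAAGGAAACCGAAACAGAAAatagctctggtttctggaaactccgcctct
Psmb8: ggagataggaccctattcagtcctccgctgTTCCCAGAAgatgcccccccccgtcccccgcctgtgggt
Irf1: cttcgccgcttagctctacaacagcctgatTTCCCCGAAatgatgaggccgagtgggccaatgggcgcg
Igtp: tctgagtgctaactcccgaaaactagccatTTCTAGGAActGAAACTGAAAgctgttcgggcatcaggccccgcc
Irgm2: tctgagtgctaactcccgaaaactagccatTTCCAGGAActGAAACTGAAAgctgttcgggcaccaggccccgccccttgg
Ifit1 and Rsad2 carry the ISRE core on the opposite strand, where it reads TTTC, 2 bases, TTTC, and Isg15 carries 3 overlapping copies. Psmb8 and Irf1 carry a GAS and no ISRE core in their windows. Igtp and Irgm2 carry a GAS followed after 2 bases by an ISRE core. Ifit2 has no ISRE core in either of its 2 windows and a GAS in 1 of them, the window of Tap1, also called, holds neither element, and Usp18 has no window in the table. These letters are a description of the windows, and nothing about binding in this skin was measured.

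Most members had group means above the array medians. The median log2 value of an array over all 41345 features lay between 2.86 and 3.04. Of the 37 members, 28 had all 4 group means above the highest of these medians. Several of these lay little above it, such as Ifit2 (group means 3.51 to 4.17), Rsad2 (3.54 to 4.41) and Gbp5 (3.48 to 3.61). A change may be harder to see there than in brighter genes. Psmb8, an immunoproteasome subunit, had the highest mean level of the members over the 20 arrays (6.70), followed by the GTPase gene Iigp1 (6.11) and Bst2, the virus tether tetherin (6.10). Levels of different genes depend on their probes, so this order is not one of RNA amount. Mx1, Mx2, Oas1g, Trim30a, Gbp4 and Gbp6 had every group mean at or below 3.04, where a change is hard to see, and Isg15, Ido1 and Nos2 lay at that border. Ifit3 and Oas1g have near-identical neighbours (Ifit3b and the other Oas1 genes), so their values may mix copies.

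The array of HFD-vehicle mouse 3 stood apart from its group. It held 42.8% of the group's squared distance from the group mean over all genes and 36.0% over the 37 members. It was the lowest of its group for 23 members, and the lowest of all 20 arrays for 8 of the 15 type II members. Its mean over the hair keratin genes was 9.99, against 6.52 to 7.58 in the other 4 HFD-vehicle samples. In the CD-vehicle group, mice 3 and 4 were the highest of all arrays for 4 and 3 type II members. Counts over the members are given with and without HFD-vehicle mouse 3 where they moved, and single values that one of these 3 arrays moved by over 1.5 times are given without it. The interaction of Irf1 (0.20) was 0.04 without CD-vehicle mouse 3 and 0.11 without HFD-vehicle mouse 3, and its diet difference under vehicle (-0.21) was -0.045 and -0.12.

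**Figure D1:**
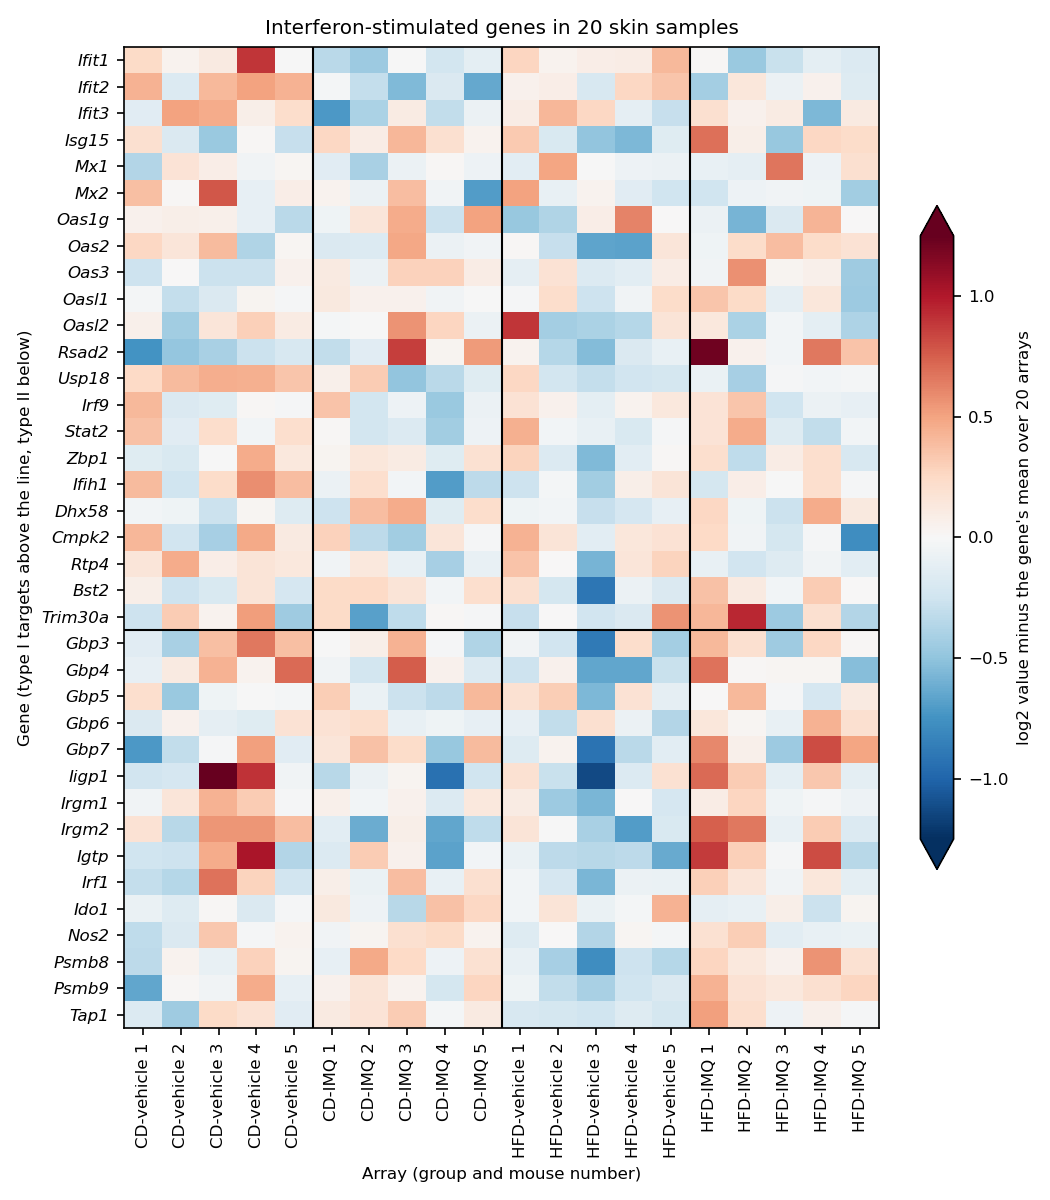
Log2 value of each of the 37 genes (rows, type I above the line and type II below) in each of the 20 skin samples (columns, 5 per group), minus that gene's mean over the 20 arrays. HFD-vehicle 3 shows as a blue column among the type II genes, and CD-vehicle 3 and 4 and HFD-IMQ 1 show red GTPase genes (Iigp1 reads 7.36 in CD-vehicle 3 against a mean of 6.11).

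In mice on control chow, most interferon-stimulated genes read near their vehicle level under imiquimod cream, and the 3 that passed the test went down. Ifit1 and Ifit2, whose products bind viral RNA and the translation machinery, fell 1.40-fold and 1.58-fold, and Usp18, the protease that removes ISG15 from proteins and damps IFNAR signalling, fell 1.42-fold. No member was called higher, where a call means an adjusted p under 0.05 in limma with Benjamini-Hochberg adjustment over all 22180 genes. An unadjusted p under 0.05 in either direction was found for 11 members, beside 5230 of the 22180 genes. The 3 of 37 called (8.11%) compare with 10.9% of all genes in this comparison, 3.91% called higher and 7.02% called lower. The median difference over the members was -0.09, with 18 above 0 and 19 below, against a median of 0.02 over all genes. The 95% interval of the difference lay within a 2-fold change either way for 34 of the 37 members. That count includes dim members, where a change is hard to see and a narrow interval says little.

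Ifit1 read 4.96, 4.77, 4.84, 5.62 and 4.72 in the 5 CD-vehicle samples and 4.39, 4.27, 4.72, 4.50 and 4.60 in the 5 CD-IMQ samples. The groups met at 4.72 to 2 decimals without overlapping, and the highest vehicle sample, mouse 4, stood well above the rest. The difference in means was -0.49 ± 0.14 (SE; 95% interval -0.79 to -0.19; adjusted p = 0.0296). Ifit1 was the only member whose groups did not overlap, against 8.89% of all genes. The call was lost without CD-vehicle mouse 1 (adjusted p = 0.0517) or 4 (-0.33, adjusted p = 0.0818), without CD-IMQ mouse 1 (0.0586), 2 (0.0725) or 4 (0.0574), and in a fit of these 2 groups alone (0.0716). Ifit2 read 4.28, 3.68, 4.25, 4.35 and 4.28 under vehicle and 3.82, 3.55, 3.29, 3.67 and 3.21 under IMQ. Apart from CD-vehicle mouse 2 at 3.68, the vehicle samples lay close together and above every IMQ sample. Its difference of -0.66 ± 0.15 (adjusted p = 0.00494) was called in every setting tried. Usp18 read 4.86, 5.01, 5.06, 5.05 and 4.96 under vehicle and 4.67, 4.93, 4.12, 4.27 and 4.46 under IMQ. The vehicle samples were tight and CD-IMQ mouse 2 lay among them. The difference was -0.50 ± 0.14 (adjusted p = 0.0196), and the call was lost without CD-IMQ mouse 3 (-0.41, adjusted p = 0.0654) or 4 (-0.45, 0.0611).

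The remaining type I members moved in both directions without passing the test. Rsad2, the antiviral enzyme viperin, had the highest difference (0.62 ± 0.22, adjusted p = 0.0737), followed by the ubiquitin-like modifier Isg15 (0.35 ± 0.18, adjusted p = 0.260) and Oas3, which makes the 2-5A signal for RNA decay (0.29 ± 0.14, adjusted p = 0.207). The Rsad2 difference passed the threshold without CD-IMQ mouse 1 (adjusted p = 0.0346) or HFD-IMQ mouse 1 (0.0401). Stat2, a subunit of the ISRE-binding complex, read -0.30 ± 0.15 (adjusted p = 0.210), and its partner Irf9 read -0.11 ± 0.14 (adjusted p = 0.716). Among type II members, the 2 lowest differences were those of Iigp1 (-0.65 ± 0.28, adjusted p = 0.158) and Irgm2 (-0.60 ± 0.21, adjusted p = 0.0679), both interferon-inducible GTPases that act on the membranes around intracellular parasites. Without CD-vehicle mouse 3 the Iigp1 difference was -0.42 (adjusted p = 0.384). Without CD-vehicle mouse 2 the Irgm2 difference was -0.75 (adjusted p = 0.0192), and without CD-IMQ mouse 3 it was -0.70 (0.0452). Irf1, the transcription factor that carries part of the gamma response, read 0.08 ± 0.17 (adjusted p = 0.831), and Gbp5, a guanylate-binding protein, read 0.07 ± 0.17 (adjusted p = 0.860). None of the 15 type II members was called in either direction by limma, and 9 of them lay above 0. Unadjusted p lay under 0.05 for 2 of the 15, beside 5230 of 22180 genes.

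In mice on the high fat diet, imiquimod cream raised 1 of the 37 genes past the test, Psmb8, and no other member passed in either direction. The single call (2.7% of members) compares with 5.89% of all genes, 3.65% called higher and 2.24% called lower. The median difference was 0.02 over the 22 type I members and 0.37 over the 15 type II members, against -0.001 over all genes. Of the type II members 14 lay above 0, Ido1 being the exception, while 13 of the type I members did. Without HFD-vehicle mouse 3 the type II median was 0.33 with 13 above 0, and the type I median was -0.01 with 9 of 22 above 0. The 95% interval lay within a 2-fold change either way for 33 of the 37 members, dim members again included.

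Psmb8 read 6.60, 6.28, 5.92, 6.44 and 6.34 in the 5 HFD-vehicle samples and 6.96, 6.83, 6.75, 7.26 and 6.89 in the 5 HFD-IMQ samples. Every IMQ sample lay above every vehicle sample, and HFD-vehicle mouse 3 was the lowest of all 20 arrays. The rise was 1.54-fold (0.62 ± 0.14, 95% interval 0.33 to 0.91, adjusted p = 0.00784) and was called in every setting tried. Psmb9, the partner subunit of the immunoproteasome, read 4.95, 4.70, 4.60, 4.76 and 4.83 under vehicle and 5.44, 5.19, 5.14, 5.21 and 5.28 under IMQ. These groups did not overlap either, and the difference of 0.48 ± 0.15 missed the threshold (adjusted p = 0.0502), which it passed in 6 of the other processing settings. Tap1, the peptide transporter that feeds class I antigen presentation, read 5.58, 5.56, 5.53, 5.62 and 5.56 under vehicle and 6.29, 5.99, 5.72, 5.84 and 5.77 under IMQ. Its vehicle samples lay close together and below all IMQ samples, with a difference of 0.35 ± 0.13 (adjusted p = 0.116). The fourth member whose groups did not overlap was Ifit1, which lay lower under IMQ. It read 4.99, 4.77, 4.81, 4.82 and 5.13 under vehicle and 4.74, 4.26, 4.45, 4.60 and 4.55 under IMQ (-0.38 ± 0.14, adjusted p = 0.142). Without CD-vehicle mouse 4, which enters only the shared spread, its adjusted p was 0.0430. Of all genes 6.06% had groups that did not overlap, against these 4 of 37 members.

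The highest difference in the high fat diet belonged to Rsad2 (0.68 ± 0.22, adjusted p = 0.0751), close to its value on chow. It passed the threshold without CD-IMQ mouse 3 (adjusted p = 0.0488), HFD-IMQ mouse 2 (0.0496) or HFD-IMQ mouse 3 (0.0408). Igtp, another GTPase of the Irgm class, came next (0.67 ± 0.25, adjusted p = 0.144). The lowest after Ifit1 were Cmpk2, a mitochondrial nucleotide kinase (-0.32 ± 0.19, adjusted p = 0.445), and Ifit2 (-0.21 ± 0.15, adjusted p = 0.565). Isg15 read 0.37 ± 0.18 (adjusted p = 0.315), Iigp1 0.47 ± 0.28 (0.452) and Irf1 0.28 ± 0.17 (0.437). The Iigp1 difference was 0.25 without HFD-vehicle mouse 3 (adjusted p = 0.753). Differences of nearly 0 were found for Stat2 (0.003 ± 0.15, adjusted p = 0.997), Irf9 (-0.04 ± 0.14, 0.948), Gbp5 (0.06 ± 0.17, 0.934) and Usp18 (0.04 ± 0.14, 0.948).

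**Figure D2:**
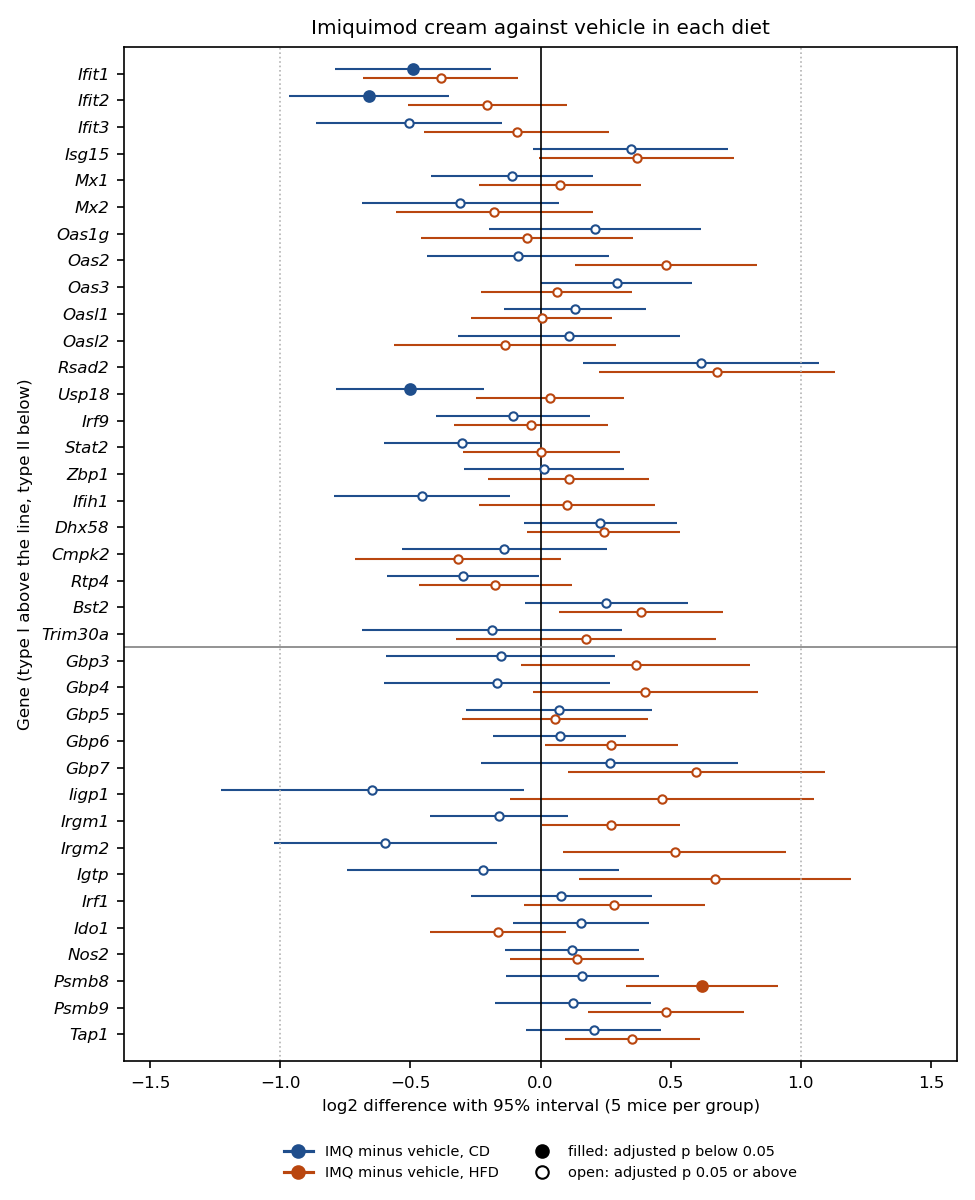
Difference in log2 value between IMQ and vehicle (points) with its 95% interval (lines) for each gene on control chow (blue) and high fat diet (orange), 5 mice per group. Filled points passed the test at an adjusted p under 0.05: Ifit1, Ifit2 and Usp18 on chow, all lower, and Psmb8 on the high fat diet, higher. The type II genes below the line lie mostly to the right of 0 on the high fat diet.

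The 2 imiquimod comparisons use different mice, so their signs can be set against each other. Of the 37 members, 22 had the same sign in both (59.5%), against 55.1% of all genes. Of the others, 12 lay below 0 on chow and above 0 on the high fat diet, and 3 the other way round. Over all 22180 genes these counts were 4625 and 5328. All 7 members that lay below 0 in both diets were type I members, beside 5807 of all genes below 0 in both.

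Averaging the 2 diets, which gives the smallest errors, called 5 members: 2 lower and 3 higher. These 13.5% compare with 12.5% of all genes, 5.48% higher and 7.06% lower. Ifit1 (-0.44 ± 0.10, adjusted p = 0.00484) and Ifit2 (-0.43 ± 0.10, adjusted p = 0.00654) were lower under IMQ. Rsad2 was 1.57-fold higher (0.65 ± 0.16, adjusted p = 0.00594), Psmb8 higher by 0.39 ± 0.10 (adjusted p = 0.0100) and Tap1 by 0.28 ± 0.09 (adjusted p = 0.0403). Rsad2 read 3.21, 3.48, 3.55, 3.69 and 3.76 in CD-vehicle skin, 3.65, 3.82, 4.82, 3.99 and 4.49 in CD-IMQ skin, 4.0, 3.60, 3.42, 3.78 and 3.87 in HFD-vehicle skin and 5.18, 4.01, 3.93, 4.62 and 4.32 in HFD-IMQ skin. The vehicle samples lay low in both diets, and the IMQ samples spread over more than 1 unit, overlapping them at the low end. Tap1 read 5.61, 5.34, 6.02, 5.96 and 5.64 in CD-vehicle and 5.89, 5.95, 6.10, 5.76 and 5.89 in CD-IMQ skin, where the groups overlapped. Without HFD-vehicle mouse 3 the averaged comparison called 2 members higher and 3 lower. The call of Tap1 was lost without any 1 of 14 arrays (CD-vehicle 1, 2 or 5, CD-IMQ 1, 2, 3 or 5, any HFD-vehicle, HFD-IMQ 1 or 2), with adjusted p from 0.0505 to 0.0823.

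**Figure D3:**
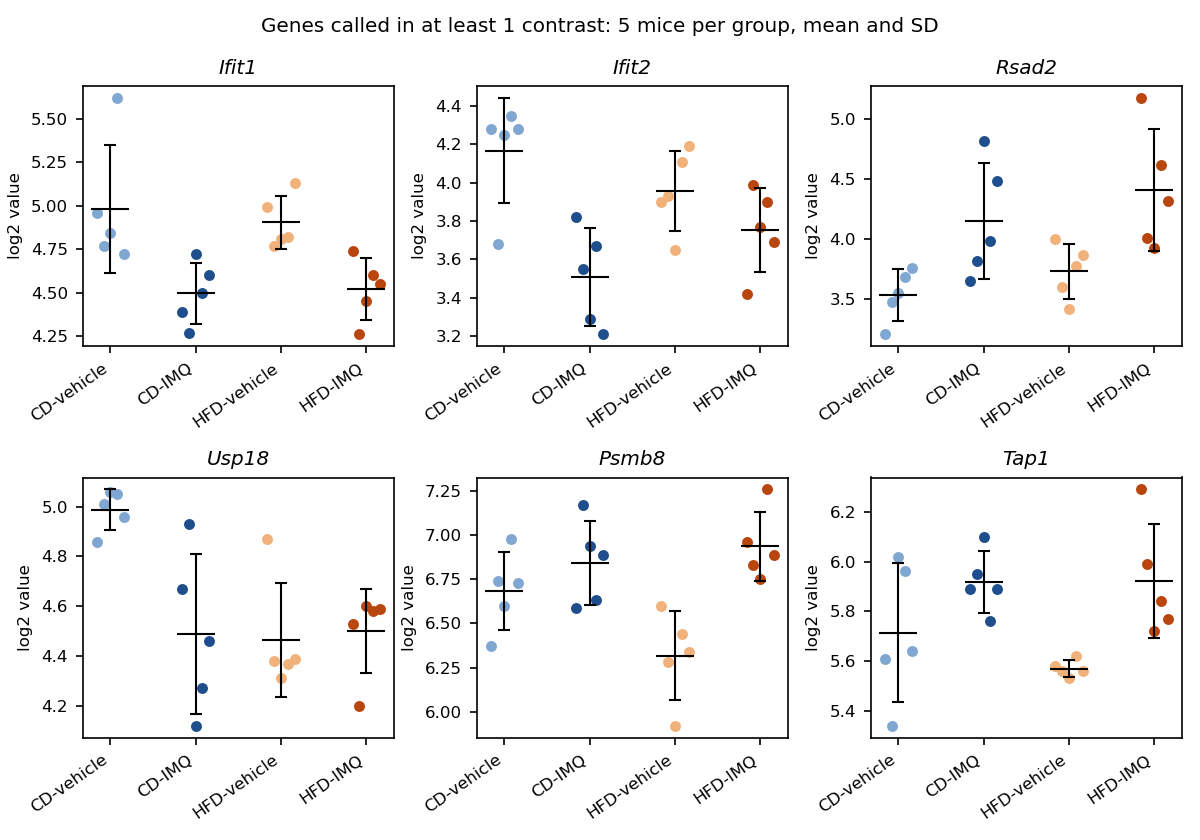
Log2 value of the 6 genes called in at least 1 comparison, each point 1 mouse, with the mean (long bar) and SD (whiskers) of the 5 mice per group; each panel has its own vertical range. Ifit1 and Ifit2 sit lower under IMQ than under vehicle in both diets by their means, Rsad2, Psmb8 and Tap1 sit higher, and Usp18 is high in the CD-vehicle group (mean 4.99) against 4.46 to 4.50 in the other 3.

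The remaining members averaged over the diets gave no call. The highest of these was Gbp7, a guanylate-binding protein, at 0.43 ± 0.17 (adjusted p = 0.104), which passed without CD-vehicle mouse 4 (0.0420), CD-IMQ mouse 4 (0.0497) or HFD-IMQ mouse 3 (0.0302). Isg15 read 0.36 ± 0.13 (adjusted p = 0.0736), and passed without CD-vehicle mouse 1 (0.0499), HFD-vehicle mouse 1 (0.0224) or HFD-IMQ mouse 3 (0.0154). Stat2 (-0.15 ± 0.10, adjusted p = 0.424), Irf9 (-0.07 ± 0.10, 0.753), Irf1 (0.18 ± 0.12, 0.391), Gbp5 (0.06 ± 0.12, 0.830) and Iigp1 (-0.09 ± 0.20, 0.852) lay closer to 0. The lowest after Ifit1 and Ifit2 was Ifit3, of the same family (-0.30 ± 0.12, adjusted p = 0.123). Usp18 at -0.23 ± 0.10 (adjusted p = 0.133) was called without CD-IMQ mouse 2 (-0.29, adjusted p = 0.0385).

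Whether the diet changed the response to imiquimod was tested by the difference between the 2 IMQ effects. No member passed (0 of 37), and 9 had an unadjusted p under 0.05, beside 3528 of 22180 genes. Of all genes 0.663% passed, 0.473% with a higher and 0.189% with a lower effect on the high fat diet. Of all calls 71.4% were higher, 57.5% after quantile normalisation and 81.7% after centring the arrays on their medians. The 3 highest members were immunity-related GTPase genes. Irgm2 had 1.11 ± 0.29 (95% interval 0.50 to 1.72, adjusted p = 0.0763), Iigp1 1.11 ± 0.40 (0.29 to 1.94, adjusted p = 0.171) and Igtp 0.89 ± 0.36 (0.15 to 1.63, adjusted p = 0.222). Without CD-vehicle mouse 2 the Irgm2 value was 1.26 with an adjusted p of 0.0359, the only setting in which a member was called. Usp18 followed among the called members, at 0.54 ± 0.19 (adjusted p = 0.173). The lowest value was that of Ido1, the tryptophan-degrading enzyme (-0.32 ± 0.18, adjusted p = 0.392), followed by Oas1g (-0.26 ± 0.28, 0.698) and Oasl2 (-0.25 ± 0.29, 0.734). Over the 15 type II members 13 lay above 0 with a median of 0.36, and over the 22 type I members 17 did with a median of 0.12. Without HFD-vehicle mouse 3 these were 12 with a median of 0.32 and 11 with a median of 0.01. Ifit1 (0.11 ± 0.20, adjusted p = 0.852), Isg15 (0.02 ± 0.26, 0.979), Stat2 (0.31 ± 0.21, 0.486), Irf9 (0.07 ± 0.20, 0.908), Irf1 (0.20 ± 0.24, 0.728) and Gbp5 (-0.02 ± 0.24, 0.987) did not pass the test either.

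The values of the GTPase genes show how the 4 groups lie. Iigp1 read 5.87, 5.90, 7.36, 7.02 and 6.07 in CD-vehicle skin and 5.77, 6.04, 6.15, 5.18 and 5.86 in CD-IMQ skin. On the high fat diet it read 6.30, 5.84, 4.99, 5.94 and 6.30 under vehicle and 6.82, 6.43, 5.99, 6.45 and 5.99 under IMQ. CD-vehicle mice 3 and 4 were the 2 highest of all 20 arrays and HFD-vehicle mouse 3 the lowest, and every pair of groups overlapped. Irgm2 read 4.77, 4.24, 5.14, 5.14 and 4.97 in CD-vehicle, 4.45, 3.96, 4.66, 3.94 and 4.27 in CD-IMQ, 4.75, 4.58, 4.18, 3.89 and 4.39 in HFD-vehicle and 5.33, 5.24, 4.49, 4.90 and 4.41 in HFD-IMQ skin. Igtp ranged from 4.16 to 5.55, 3.86 to 4.85, 3.90 to 4.45 and 4.18 to 5.40 in the same order. Without CD-vehicle mouse 4 the Igtp difference under IMQ on chow was 0.006 against -0.22 with it, and that for diet under vehicle -0.24 against -0.46. Without CD-vehicle mouse 3 the chow difference was -0.14 for Igtp and -0.094 for Irgm1, against -0.16 with it for Irgm1. Irgm1, which regulates the other GTPases, ranged from 3.68 to 4.16, 3.55 to 3.85, 3.15 to 3.82 and 3.66 to 3.99. All 4 genes had lower means in CD-IMQ and HFD-vehicle than in CD-vehicle and HFD-IMQ skin. Without HFD-vehicle mouse 3 the median of their 4 interaction values was 0.89, and over all settings it ran from 0.82 to 1.13. Of the 4 genes, 3 were the highest members for this same interaction, and Irgm1 was named after its values were seen. They also varied together within groups (median correlation 0.595 over 6 pairs). Their shared order is therefore only a description, and with all arrays none of the 4 passed the interaction test.

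**Figure D4:**
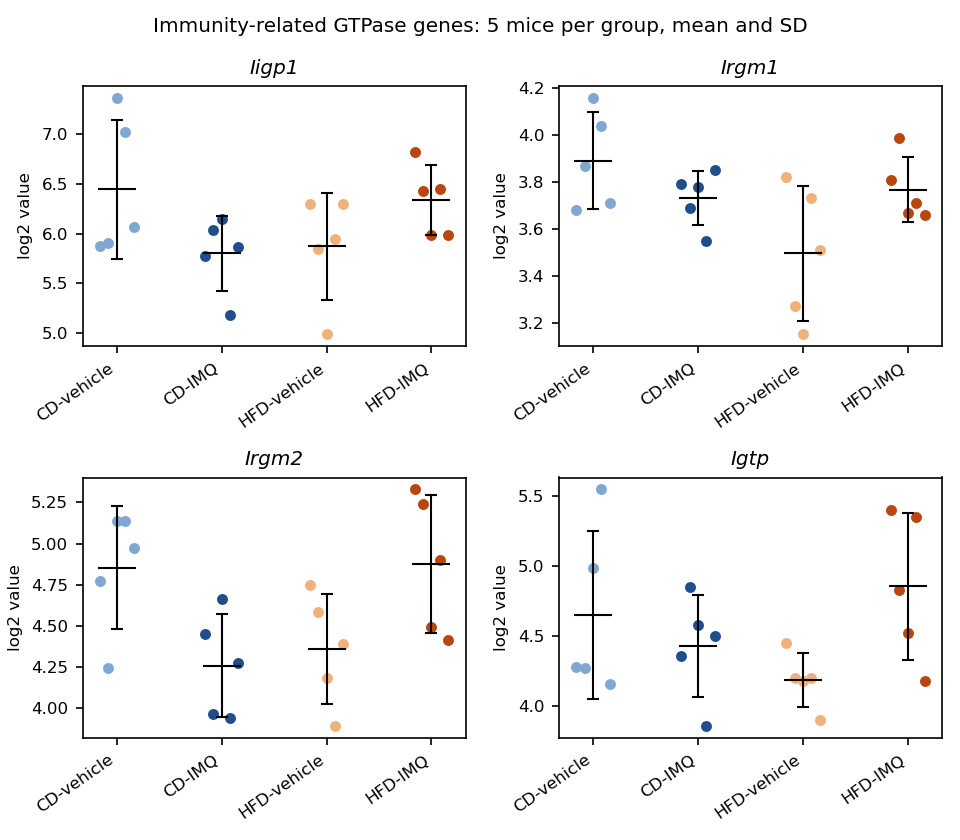
Log2 value of the 4 immunity-related GTPase genes, each point 1 mouse, with the mean (long bar) and SD (whiskers) of 5 mice per group; each panel has its own vertical range. The means form the same order of high, low, low and high across the groups from left to right (chow vehicle, chow IMQ, high fat vehicle, high fat IMQ), for instance 4.85, 4.26, 4.36 and 4.87 for Irgm2, while the points of all groups overlap.

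Under vehicle, the high fat diet lowered 1 member past the test, Usp18, and none of the other members passed. The 1 of 37 (2.7%) compares with 2.18% of all genes, 1.22% called higher and 0.956% called lower. Usp18 read 4.87, 4.38, 4.31, 4.37 and 4.39 in HFD-vehicle skin, so that 4 of the 5 samples lay below every CD-vehicle sample and mouse 1 just inside their range. It fell by 0.53 ± 0.14 on the log2 scale, 1.44-fold (adjusted p = 0.0461). This call was lost without any 1 of 14 arrays (any CD-vehicle, CD-IMQ 1 or 5, HFD-vehicle 2 to 5, HFD-IMQ 1, 3 or 5), with adjusted p from 0.0511 to 0.120. No member had groups that did not overlap, against 3.94% of all genes. Of the 37 members 28 lay below 0 with a median of -0.15, against -0.01 over all genes, and 13 of these were type II members with a median of -0.21. Without HFD-vehicle mouse 3 the member median was -0.06 and the type II median -0.17, with 27 and 13 below 0. The CD-vehicle samples enter both this comparison and that of IMQ on chow, and the HFD-vehicle samples both this one and that of IMQ on the high fat diet.

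The lowest differences between diets under vehicle were those of Gbp4 (-0.60 ± 0.21, adjusted p = 0.149), whose levels were dim (1.12 to 2.53), and Iigp1 (-0.57 ± 0.28, adjusted p = 0.353). The Iigp1 value was -0.35 without either CD-vehicle mouse 3 or HFD-vehicle mouse 3 (adjusted p = 0.676 and 0.669). The 3 highest were those of Rsad2 (0.20 ± 0.22, adjusted p = 0.763), Ido1 (0.18 ± 0.13, 0.572) and Oasl1 (0.12 ± 0.13, 0.747), a translation regulator of the OAS family. Ifit1 (-0.08 ± 0.14, 0.867), Isg15 (-0.07 ± 0.18, 0.915), Stat2 (-0.10 ± 0.15, 0.820), Irf9 (0.04 ± 0.14, 0.939), Irf1 (-0.21 ± 0.17, 0.627) and Gbp5 (0.07 ± 0.17, 0.913) did not pass the test either. The 95% intervals lay within a 2-fold change for 35 of the 37 members, a count that again includes dim members.

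In imiquimod-treated skin limma called no member for diet, and 0% of all genes in either direction. At an unadjusted p under 0.05 there was 1 member, Irgm2 (0.62 ± 0.21, adjusted p = 0.343), and 2289 of 22180 genes. Iigp1 (0.54 ± 0.28, adjusted p = 0.517) and Igtp (0.43 ± 0.25, 0.570) were the next highest. The lowest were Oasl2 (-0.31 ± 0.21, adjusted p = 0.621) and Oas1g (-0.24 ± 0.20, 0.690), both of the OAS family, and Ido1 (-0.14 ± 0.13, 0.727). No member had groups that did not overlap, against 1.67% of all genes. Ifit1 (0.03 ± 0.14, 0.968), Isg15 (-0.05 ± 0.18, 0.956), Irf1 (-0.01 ± 0.17, 0.992), Stat2 (0.20 ± 0.15, 0.647), Irf9 (0.11 ± 0.14, 0.830) and Gbp5 (0.05 ± 0.17, 0.948) did not pass the test.

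Averaged over both treatments no member was called for diet (0 of 37 by limma), against 0.41% of all genes, 0.252% higher and 0.158% lower. Unadjusted p lay under 0.05 for 2 members, beside 2246 of 22180 genes. The lowest was Gbp4 (-0.31 ± 0.15, adjusted p = 0.478), then Usp18 (-0.26 ± 0.10, 0.331) and Gbp3, another guanylate-binding protein (-0.19 ± 0.15, 0.724, and -0.11 without HFD-vehicle mouse 3). The highest were Rsad2 (0.23 ± 0.16, adjusted p = 0.667) and, both dim, Mx1 (0.16 ± 0.11, 0.645) and Trim30a (0.12 ± 0.17, 0.877). Ifit1 (-0.03 ± 0.10, 0.965), Isg15 (-0.06 ± 0.13, 0.927), Iigp1 (-0.02 ± 0.20, 0.990), Irf1 (-0.11 ± 0.12, 0.818), Stat2 (0.05 ± 0.10, 0.917), Irf9 (0.08 ± 0.10, 0.857) and Gbp5 (0.06 ± 0.12, 0.920) lay near 0.

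**Figure D5:**
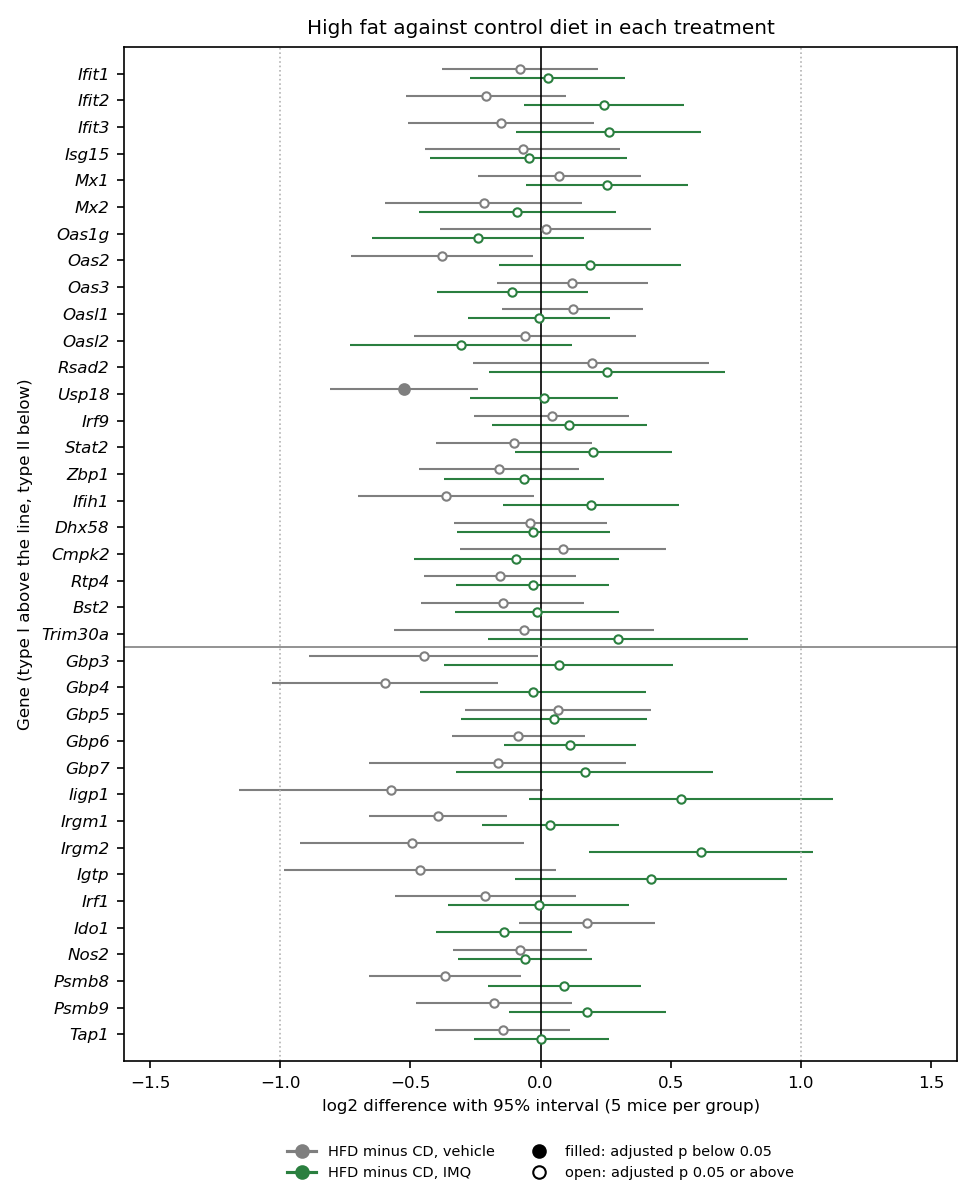
Difference in log2 value between high fat diet and control chow (points) with its 95% interval (lines) under vehicle (grey) and under IMQ (green), 5 mice per group. The filled point, passing the test at an adjusted p under 0.05, is Usp18 under vehicle. Most grey points lie to the left of 0 (28 of 37), and no green point is filled.

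Most of the interferon genes themselves read dim in this skin. Of 21 listed, 19 were measured, and 12 of those had all group means at or below the array medians. In 6 all group means lay above them: Ifna1 (4.67 to 4.91), Ifnl3 (4.66 to 4.75), Ifna4, Ifna14, Ifna15 and Ifnl2. Ifnb1 had group means of 1.74, 1.91, 1.77 and 1.58 in vehicle and IMQ skin on chow and then in vehicle and IMQ skin on the high fat diet, and Ifng 2.23, 2.37, 2.29 and 2.21. Neither was called under IMQ on chow (0.17 ± 0.12 and 0.13 ± 0.12, adjusted p = 0.420 and 0.571) or on the high fat diet (-0.19 ± 0.12 and -0.08 ± 0.12, adjusted p = 0.477 and 0.841). Ifna9 was called higher under IMQ in both diets (0.48 ± 0.15, adjusted p = 0.0372, and 0.49 ± 0.15, 0.0473), but its means, 1.59, 2.06, 1.76 and 2.25, lay below the array medians. Its call on chow was lost without CD-vehicle 1 or 5 or CD-IMQ 1, 3 or 5 (adjusted p up to 0.119). On the high fat diet it was lost without 13 of the 20 arrays (adjusted p up to 0.116), 4 HFD-IMQ and all 5 HFD-vehicle arrays among them. The lambda interferon gene Ifnl2 had the highest mean of the ligands, 5.52, 5.57, 5.26 and 5.19, with differences of 0.06 ± 0.17 and -0.07 ± 0.17 under IMQ (adjusted p = 0.894 and 0.917).

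Receptor and signalling genes were measured for 18 of 20, all above the array medians. On chow, IMQ lowered Jak2, a kinase of the gamma receptor (-0.60 ± 0.13, adjusted p = 0.00344), and Irf2, a repressor at ISRE sequences (-0.46 ± 0.13, adjusted p = 0.0284), and raised Irf8, a factor of myeloid and dendritic cells (0.52 ± 0.17, adjusted p = 0.0469). The Irf2 call was lost without CD-vehicle 1 or 3 or CD-IMQ 1, 4 or 5 (adjusted p up to 0.0938), and that of Irf8 without 14 arrays (up to 0.120). These 3 of 18 are 16.7%, beside 10.9% of all genes. On the high fat diet 6 of the 18 were called higher and none lower (33.3% beside 5.89% of all genes, or 3.65% higher). Ptpn6, a phosphatase of blood cells, rose most (1.03 ± 0.20, adjusted p = 0.00197), then Irf8 (0.81 ± 0.17, 0.00357), Irf7, which drives interferon alpha genes (0.75 ± 0.19, 0.0153), and the receptor chain Ifnar2 (0.63 ± 0.15, 0.0129). On chow Irf7 read 0.36 ± 0.19 (adjusted p = 0.261), and 0.24 without CD-vehicle mouse 3. Ptpn6 had the highest difference of the list on chow too, 0.585 (group means 5.97 and 6.55), which was not called. Limma called no gene of this list for the diet under vehicle or for the interaction. Unadjusted p lay under 0.05 for 6 and 7 of the 18, beside 3255 and 3528 of 22180 genes. In the interaction 15 of 18 lay above 0 with a median of 0.33, beside a median of -0.001 over all genes.

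A wider list of other interferon-stimulated genes held 65 measured of 77. On chow 1 was called higher and 4 lower (7.69% beside 10.9% of all genes), and on the high fat diet 9 were called higher and none lower (13.8% beside 5.89% of all genes, or 3.65% higher). The 3 lowest on chow were Ifi205, a DNA-binding protein of the interferon-inducible HIN family (-0.82 ± 0.16, adjusted p = 0.00161), Serping1, the C1 inhibitor (-0.63 ± 0.13, 0.00278), and Slfn5 (-0.54 ± 0.14, 0.0161). The Slfn5 call was lost without CD-vehicle mouse 5 (adjusted p = 0.0508) and after quantile normalisation (0.0671). Slfn2, a regulator of lymphocyte and monocyte quiescence, was called higher on chow (0.47 ± 0.15, adjusted p = 0.0479), a call lost without 14 of the 20 arrays (adjusted p up to 0.126), and on the high fat diet (0.90 ± 0.15, 0.000557). The largest rises on the high fat diet were those of Gbp8 (1.62 ± 0.31, adjusted p = 0.00176) and Epsti1 (1.06 ± 0.16, 0.000169), followed by Slfn2 and the exonuclease gene Isg20 (0.75 ± 0.22, 0.0468). Gbp8 also had the highest difference of the list on chow, 0.94 (group means 3.75 and 4.70), which was not called. The Isg20 call was lost without 11 of the 20 arrays (adjusted p up to 0.149). Without HFD-vehicle mouse 3 the count on the high fat diet was 7 higher, with 45 of 65 above 0. Over the whole list and all arrays 54 of 65 lay above 0 there (median 0.17), against 29 on chow (median -0.04). Limma called no gene of the list for the diet under vehicle or the interaction. Unadjusted p lay under 0.05 for 17 and 18 of the 65, beside 3255 and 3528 of 22180 genes.

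Markers of the cells that make or answer interferon moved as follows beside these results, and their part in them was not tested. For comparison, 10.9% of all genes were called under IMQ on chow, 5.89% on the high fat diet and 2.18% for diet under vehicle. The macrophage and monocyte markers had a mean log2 level of 7.09 to 7.44 in CD-vehicle, 7.43 to 7.80 in CD-IMQ, 6.61 to 7.28 in HFD-vehicle and 7.54 to 8.14 in HFD-IMQ samples. Of the 15, 6 were called higher under IMQ on chow (40%) and 12 on the high fat diet (80%). Adgre1, the gene of F4/80, read 1.12 and 1.92, and Cd68 read 0.88 in both. On chow 13 of the 15 lay above 0 and 2 below, and on the high fat diet 14 and 1. Ly6c2 had lower means under IMQ in both diets (group means 4.96, 4.81, 5.16 and 4.91). Cd14 had a lower one on chow (6.31, 6.14, 5.62 and 6.47), and Ccr2 moved little (5.72, 5.89, 5.54 and 5.72). The T and natural killer cell markers (17 measured, 6 at or below the array medians in all groups) ran from 3.07 to 3.17, 3.05 to 3.37, 2.84 to 3.01 and 2.98 to 3.42. Cd4 was called higher in both diets (0.71 and 0.61), Gzma on the high fat diet (1.73), and Klrk1 lower on chow (-0.54). These calls are 11.8% of the list in each diet, near the share of all genes on chow. Cd3e was not called in either diet, with group means of 4.20, 4.20, 4.05 and 4.20. The plasmacytoid dendritic cell markers (8 measured, 3 dim in all groups) ran from 3.49 to 3.97, 3.56 to 3.71, 3.60 to 3.79 and 3.42 to 3.68. Cox6a2 and Tcf4 read highest of them (group means 6.08 to 6.35 and 5.98 to 6.29) and so weigh most in these levels. Whether they mark only such cells in this skin was not tested. None of the 8 was called higher, while Siglech was called lower on chow (-0.59) and Bcl11a on the high fat diet (-0.58). Each call is 12.5% of the list. Bcl11a had its highest mean in HFD-vehicle skin (4.42), and which cells gave its signal was not tested. The 12 neutrophil markers (4 dim in all groups) had mean levels of 2.72 to 3.20, 4.37 to 4.83, 3.05 to 3.56 and 4.54 to 5.04. By this mean the 2 IMQ groups lay above both vehicle groups, and 6 markers were called higher on chow and 7 on the high fat diet. S100a8 (group means 3.28, 9.41, 4.91 and 9.70), S100a9 and Stfa2l1 moved most. Ly6g (1.73, 1.75, 1.58 and 1.72) and Mmp9 (4.75, 4.77, 4.34 and 4.80) moved little. Which cells gave these signals was not tested. Keratinocyte and fibroblast markers had mean levels of at least 7.24 and 8.96 in every sample. Beside the lower Ifit1, Ifit2 and Usp18 calls on chow, fibroblast markers were called lower for 5 of 8 (all 8 below 0), keratinocyte markers higher for 5 of 9, hair keratin markers lower for 5 of 10, and adipocyte markers lower for 1 of 7 (all 7 below 0, median -0.65). On the high fat diet IMQ lowered 3 of 8 fibroblast markers and raised 2 of 9 keratinocyte markers. Beside the lower Usp18 call for diet under vehicle, 3 of 9 keratinocyte markers were called higher (all 9 above 0). The hair keratin markers were lower under IMQ on the high fat diet for 8 of 10 and higher in HFD-vehicle than CD-vehicle skin for 8 of 10.

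By the median over pairs, type II members varied together from mouse to mouse within a group more than type I members did. Taking each value as its deviation from its group mean over the 20 arrays, the 105 pairs of type II members had a median Pearson correlation of 0.39 (lowest -0.51, 38 above 0.5). The 231 pairs of type I members had a median of 0.10 (lowest -0.70, 27 above 0.5). The 330 pairs of a type I with a type II member had a median of 0.175. Among the 11 type II members above the array medians in every group the median was 0.54 over 55 pairs, and among the type I members above them 0.15 over 136 pairs. The 10 pairs among Ifit1, Ifit2, Ifit3, Isg15 and Usp18 had a median of -0.07 and none above 0.5. Within type II, the 10 pairs among Gbp3 to Gbp7 had a median of 0.14 and 1 above 0.5. The 6 pairs among Iigp1, Irgm1, Irgm2 and Igtp had a median of 0.595. Iigp1 and Irf1 were the closest pair (r = 0.91), then Irf1 and Tap1 (0.80), Iigp1 and Tap1 (0.78) and, at 0.76 each, Iigp1 with Irgm1 and Gbp7 with Psmb8. Within type I the closest pairs were Zbp1 with Bst2 (0.75) and Irf9 with Stat2 (0.74), the latter 2 subunits of the same complex. The points of these correlations are the same 20 arrays and share their normalisation, HFD-vehicle mouse 3 included, so they are given as a description.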

How the data were processed

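Abdominal skin RNA (300 ng) of 20 mice was measured on Affymetrix arrays. The deposited values are log2 expression values made by the authors with RMA (affy package), per the submitters' processing notes, which name no versions. Of 41345 features, 23521 carried 1 gene symbol, 1814 several and 16010 none. Where a gene had several single-symbol features, the one brightest on average over the 20 arrays stood for it (22180 genes). Group means of all 20 arrays were fitted with limma 3.58.1 (R 4.3.3, empirical Bayes), with 7 contrasts and Benjamini-Hochberg adjustment over all genes. The number of arrays limits the precision. Errors after ± are standard errors of the fit. Named with values were members called in any contrast, the 3 highest and 3 lowest differences of each, and 7 fixed genes (Ifit1, Isg15, Irf1, Stat2, Irf9, Iigp1, Gbp5); Psmb9, Irgm1 and other values of the GTPase genes were named after their values were seen. Of the other lists, called genes were named, up to 4 per list and contrast. Replicate numbers were checked for pairing: of 30 same-number pairs 4 correlated above 0.1 (range -0.22 to 0.32), so mice were not treated as paired. The fit was tested on simulated data. Members and lists were chosen with earlier results of these data known. Motifs were searched with Python 3.11.15 in RefSeq promoter windows. Alternatives were other feature choices, a dim filter, quantile normalisation, median centring, robust moderation, array weights, fits of the compared groups alone, a replicate block and leaving out each array.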

Additional observations from a re-analysis of the deposited data

Results flagged for a closer look

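Each member was checked in each group of 5 for 1 sample standing apart (the gap to the nearest sample over the whole range, by Dixon's 95% critical value). Of 148 groups checked 10 held such a sample, and chance gives about 1 in 20. In CD-vehicle skin, Ifit1 was 5.62 in mouse 4 (others 4.72 to 4.96), Ifit2 was 3.68 in mouse 2 (others 4.25 to 4.35) and Rtp4 was 6.17 in mouse 2 (others 5.79 to 5.86). The first of these samples raises the vehicle mean behind the lower Ifit1 call on chow and the second lowers the one behind the Ifit2 call. In CD-IMQ skin, Oas2 was 5.56 in mouse 3 (others 4.90 to 5.03) and Gbp7 was 5.48 in mouse 4 (others 6.11 to 6.35). In HFD-vehicle skin, Usp18 was 4.87 in mouse 1 (others 4.31 to 4.39), Stat2 was 5.49 in the same mouse (others 4.86 to 5.04) and Mx1 was 2.71 in mouse 2 (others 2.09 to 2.21), the last below the array medians. In HFD-IMQ skin, Ifit3 was 3.77 in mouse 4 (others 4.38 to 4.53) and Usp18 was 4.20 in mouse 2 (others 4.53 to 4.60).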

How the results depend on the processing

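Each call of a member was refitted under the other settings and without each array in turn. The lower call of Ifit2 on chow and the higher call of Psmb8 on the high fat diet passed in every refit. Members called higher under IMQ on the high fat diet numbered 2 with averaged features, without dim genes, after quantile normalisation, with robust moderation, with array weights and with the 2 groups alone, the addition being Psmb9 each time, and 1 to 3 without single arrays. Members called lower by the diet under vehicle numbered 0 after median centring, with the 2 groups alone and with the replicate block, and 0 to 1 without single arrays. Members called higher under IMQ averaged over the diets numbered 5 without dim genes, after quantile normalisation and with array weights, and 2 to 6 without single arrays. Without single arrays, calls on chow ran from 0 to 1 higher and 1 to 5 lower, calls lower on the high fat diet from 0 to 1, and interaction calls higher from 0 to 1. The lowest count on chow, 1, came without CD-IMQ mouse 4 and the highest, 5, without CD-vehicle mouse 2. After quantile normalisation the diets differed under IMQ for 3 genes higher and 2 lower, no member among them.

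Blocking on the replicate number, which did not pair the mice, ended the calls of Usp18 for diet under vehicle (-0.525, adjusted p = 0.0755) and Tap1 averaged over diets (adjusted p = 0.0636). It also ended those of Ifna9 in both diets, Irf8 and Slfn2 on chow and Isg20 on the high fat diet (adjusted p from 0.0515 to 0.0831). Among the named values it added Isg15 averaged over diets (adjusted p = 0.0333).

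Changes of sign occurred only in values that missed the test. After median centring the diet difference averaged over treatments was 0.003 for Ifit1 and 0.011 for Iigp1 (0.033 with array weights), that under IMQ 0.038 for Irf1 and 0.000 for Isg15, and the interaction of Gbp5 0.021 (0.041 after quantile normalisation). After quantile normalisation the diet difference of Ifit1 under IMQ was -0.021 and the IMQ difference of Stat2 on the high fat diet -0.015, and with array weights that of Gbp5 was -0.005. Without single arrays the averaged diet difference ran from -0.058 to 0.053 for Ifit1, -0.095 to 0.097 for Iigp1, -0.126 to 0.021 for Isg15 and -0.003 to 0.093 for Stat2. The diet difference under IMQ ran from -0.034 to 0.15 for Gbp5, -0.029 to 0.092 for Ifit1, -0.063 to 0.063 for Irf1, -0.018 to 0.066 for Irgm1 and -0.180 to 0.111 for Isg15. Under vehicle it ran from -0.031 to 0.206 for Gbp5, -0.143 to 0.080 for Ifit1, -0.007 to 0.141 for Irf9 and -0.205 to 0.017 for Isg15. The averaged IMQ difference ran from -0.007 to 0.105 for Gbp5 and -0.200 to 0.024 for Iigp1. On chow it ran from -0.028 to 0.155 for Gbp5, -0.027 to 0.121 for Ifnl2, -0.343 to 0.006 for Igtp and -0.013 to 0.247 for Irf1. On the high fat diet it ran from -0.084 to 0.132 for Gbp5, -0.230 to 0.028 for Ifnl2, -0.119 to 0.029 for Irf9, -0.105 to 0.108 for Stat2 and -0.002 to 0.138 for Usp18. The interaction ran from -0.154 to 0.083 for Gbp5, -0.053 to 0.171 for Ifit1, -0.031 to 0.181 for Irf9, -0.111 to 0.180 for Isg15 and -0.132 to 0.227 for Rsad2. The cause of these changes was not tested. Signal near background limits the 6 dim members, and may limit members little above the array medians, such as Ifit2 and Rsad2.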
